A study of Mus musculus with 6 samples.

Results

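The integrin and laminin subunits were described in RNA-Seq data of the liver in 3 mice deficient in *Spns1* (g*Spns1*-cKO) and 3 control mice. Members were chosen by name. They were the protein-coding genes of the deposited table whose symbol is that of an integrin alpha, an integrin beta or a laminin alpha, beta or gamma subunit. This gave 37 of the 54532 genes listed, of which 26 encode integrin subunits and 11 encode laminin chains. By where each subunit is known to be expressed, 8 members were placed in a leukocyte class, 11 in an epithelial, 13 in a stromal (stellate, endothelial, smooth muscle and fibroblast), 2 in a platelet and 3 in a broad class. The g*Spns1*-cKO mice carried *Spns1* alleles with loxP sites on both sides of exon 3 and Rosa26Cre-ERT2, a tamoxifen-dependent Cre active throughout the body, and received 50 mg/kg tamoxifen at postnatal days 11, 13 and 15. *Spns1*, which encodes a lysosomal transporter of lysophospholipids, was therefore deleted in the whole animal and not in a chosen liver cell type. The controls are wild type in the sample labels, whereas the methods use floxed littermates, and whether they also received tamoxifen is not given in the sources used here. All mice were on the C57BL/6 background. Their age at collection and sex are not given in the sources used here.

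Integrins are receptors made of 1 alpha and 1 beta subunit that tie the cytoskeleton to the extracellular matrix or to ligands on other cells. The beta 2 and beta 7 families serve leukocytes, whereas *Itgb1* pairs with many alpha subunits in most cells of the body. Laminins are secreted trimers of an alpha, a beta and a gamma chain, and with type IV collagen they build the basement membranes beneath epithelia and around vessels and smooth muscle. In the liver, bile ducts and the larger vessels lie on a basement membrane, while the sinusoids lack a continuous one.

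The upstream sequence of 4 members is shown because it includes leukocyte integrin subunits that were higher in g*Spns1*-cKO liver and the laminin beta chain that was lower. The set of RefSeq promoters used here, on GRCm38.p6, covered 23 of the 37 members with 26 start sites. Absence from this set does not mean that RefSeq gives no start. The 250 bases before each start were read. Capitals mark AGGAAG, a core recognised by ETS factors, read on both strands, and, in *Itgax* alone, TGANTCA, the AP-1 core, which was added after the other motif had been chosen. The *Itgam* promoter lies at chr7:128062390-128062639 on the plus strand and that of its neighbour *Itgax* at chr7:128129300-128129549 on the plus strand. Those of *Itgb7* and *Lamb3* lie at chr15:102231936-102232185 on the minus strand and at chr1:193301744-193301993 on the plus strand. Each sequence ends at the base before the start site.
Itgam: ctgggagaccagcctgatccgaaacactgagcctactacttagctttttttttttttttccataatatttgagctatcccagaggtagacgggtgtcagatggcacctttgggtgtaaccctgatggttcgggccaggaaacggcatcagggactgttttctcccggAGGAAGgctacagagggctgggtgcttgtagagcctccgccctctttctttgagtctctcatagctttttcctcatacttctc
Itgax: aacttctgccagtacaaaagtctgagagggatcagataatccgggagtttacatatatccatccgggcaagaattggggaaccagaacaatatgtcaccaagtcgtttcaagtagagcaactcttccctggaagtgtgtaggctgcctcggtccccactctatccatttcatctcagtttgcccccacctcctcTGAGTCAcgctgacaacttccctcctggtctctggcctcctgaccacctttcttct
Itgb7: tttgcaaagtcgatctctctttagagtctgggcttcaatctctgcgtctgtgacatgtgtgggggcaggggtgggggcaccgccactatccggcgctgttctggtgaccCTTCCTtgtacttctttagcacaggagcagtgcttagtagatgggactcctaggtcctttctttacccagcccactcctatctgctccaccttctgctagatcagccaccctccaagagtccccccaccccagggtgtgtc
Lamb3: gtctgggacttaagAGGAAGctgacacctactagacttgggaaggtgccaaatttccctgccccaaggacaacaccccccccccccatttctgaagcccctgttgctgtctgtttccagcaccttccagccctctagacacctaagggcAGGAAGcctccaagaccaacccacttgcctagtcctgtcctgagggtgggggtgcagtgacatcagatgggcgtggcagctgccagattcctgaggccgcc

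The capitals of *Itgam* begin 83 bases before its start, and those of *Lamb3* begin 236 and 101 bases before its start. In *Itgb7* the core stands on the other strand, 141 bases before the start. AGGAAG occurred in 12 of the 26 member promoters (46.2%) and in 29.5% of the 32851 promoters of the same length in the table. It stood in 2 of the 4 leukocyte members with a promoter, 3 of 6 epithelial and 4 of 9 stromal members. TGANTCA occurred in 1 of the 26 (3.85%), 56 bases before the start of *Itgax*, and in 6.75% of all promoters. *Lamb3* has another RefSeq start at position 193302243 with neither motif in its 250 bases. These matches describe the letters only.

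The libraries held between 30350002 and 35295611 counts, and 3 counts corresponded to between 0.0763 and 0.119 CPM (counts divided by a library size scaled by TMM, edgeR's correction for composition). The TMM factors were 0.834 to 0.873 in control and 1.16 to 1.18 in g*Spns1*-cKO livers, so the scaling itself differs between the groups. *Spns1*, counted over the whole gene and not over the deleted exon alone, had 1008, 1562 and 875 counts in control mice and 642, 1175 and 698 in g*Spns1*-cKO mice. This was 40.4 ± 8.98 against 22.1 ± 7.40 CPM (SD, n = 3), and the log2 fold change was -0.87 (SE 0.25, adjusted p = 0.0300, edgeR). The groups did not overlap after TMM scaling, whereas the counts of g*Spns1*-cKO 2 lay above those of control 1 and 3. Here and throughout, adjusted p is edgeR's quasi-likelihood p with Benjamini-Hochberg adjustment over all 15449 genes tested, called at 0.05. The *Spns1* call was lost without control 2 and without g*Spns1*-cKO 1 or 3, with adjusted p of 0.0785, 0.0910 and 0.0830. It was also lost with upper-quartile scaling (adjusted p = 0.0635) and with library size as the only scaling, where the log2 fold change was -0.43 (adjusted p = 0.213). Sums of hepatocyte markers were lower and those of macrophage, cholangiocyte and stellate markers higher in g*Spns1*-cKO liver. In these bulk samples, more cells of a type and more RNA per cell cannot be told apart.

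Most integrin and laminin subunits were higher in g*Spns1*-cKO liver. Of the 35 members with enough counts for the test, 21 rose, 3 fell and 11 were not called, and 16 of those that rose did so by at least 2-fold. Over all genes tested, 41.8% were called, 21.3% higher and 20.5% lower. This split depends on the scaling, with 3286 genes higher and 3166 lower under TMM, 4111 and 2240 under upper-quartile scaling and 7289 and 970 with library size only, where 27 members were higher and 3 lower. The 3 members that fell were *Lama3*, *Lamb3* and *Itga10*. In 23 of the tested members every g*Spns1*-cKO mouse lay above every control mouse, in 4 every one lay below, and in 8 the groups overlapped. Over all genes tested, 54.1% did not overlap. The median log2 fold change was 0.85 for the 35 members and 0.014 for all genes tested. Members are long transcripts, with a median length of 7015 bases against 3885 for all genes tested. Among the 5656 tested genes of at least 5000 bases, 27.3% were higher and 14.7% lower, with a median of 0.13. The 2 untested members, *Itgad* and *Itgb6*, had too few counts.

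**Figure D1:**
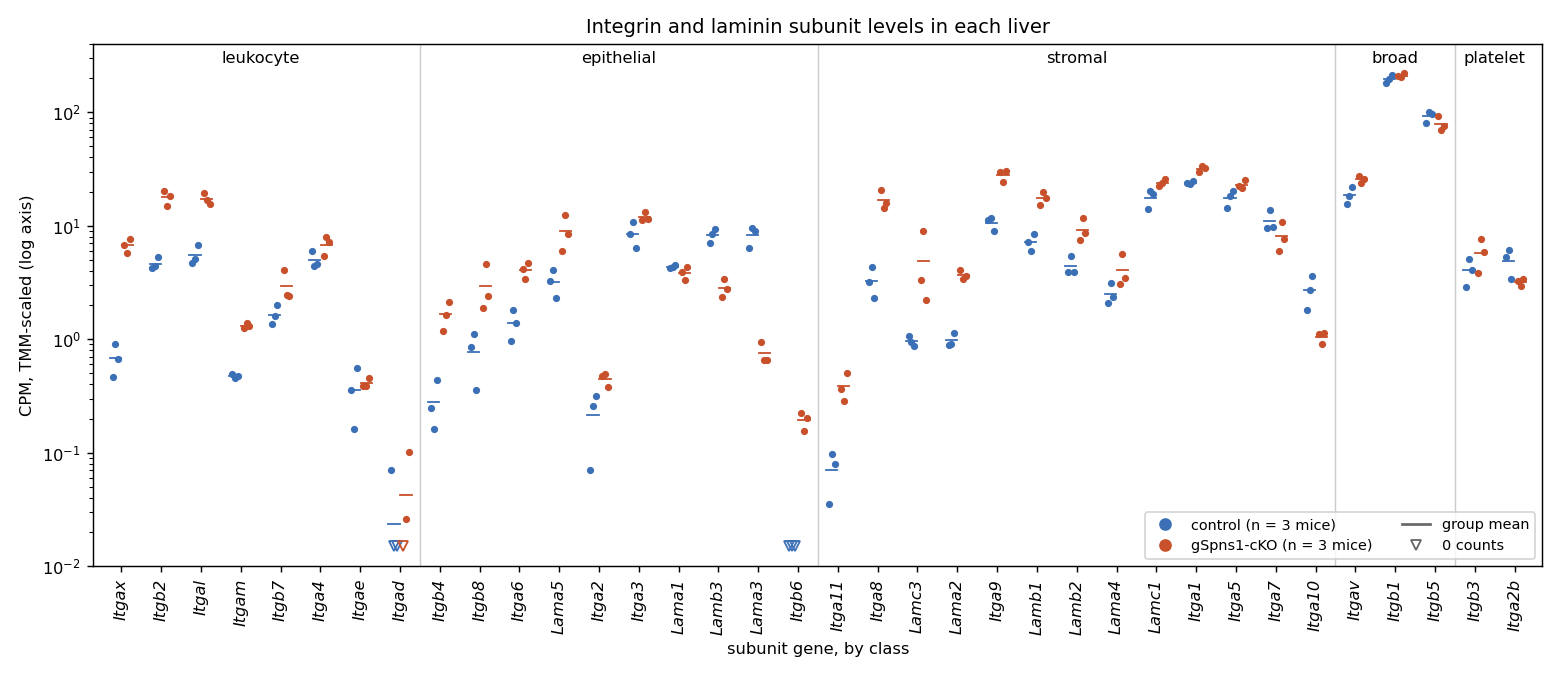
Level of 36 members in each liver, as TMM-scaled CPM on a log axis, with members ordered by class along the horizontal axis. Points are mice (blue control, red g*Spns1*-cKO, n = 3 each), short lines are group means and open triangles are livers with 0 counts. *Itgb1* stands highest in both groups with 197 and 211 CPM, and *Lama3* falls from 8.33 to 0.753 CPM.

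The 3 main classes shared a median shift upwards and differed in their spread. The median log2 fold change was 1.46 over 7 tested leukocyte subunits, 1.27 over 10 epithelial and 1.05 over 13 stromal subunits. The leukocyte subunits ranged from 0.23 to 3.29, and 5 were higher. The epithelial subunits had the widest range of the classes, from -3.47 to 2.57, with 5 higher and 2 lower. The stromal subunits ranged from -1.36 to 2.38, with 10 higher and 1 lower. By summed level, leukocyte subunits went from between 17.0 and 20.4 CPM in control mice to between 49.7 and 57.5 CPM in g*Spns1*-cKO mice. Stromal subunits went from between 93.2 and 111 to between 165 and 179 CPM. Epithelial subunits, at 32.0 to 41.2 and 34.4 to 46.8 CPM, overlapped between the groups. The ratios of the mean sums were 2.91 for leukocyte, 1.67 for stromal and 1.12 for epithelial subunits. These are descriptions of the classes, and the difference between classes was not tested.

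**Figure D2:**
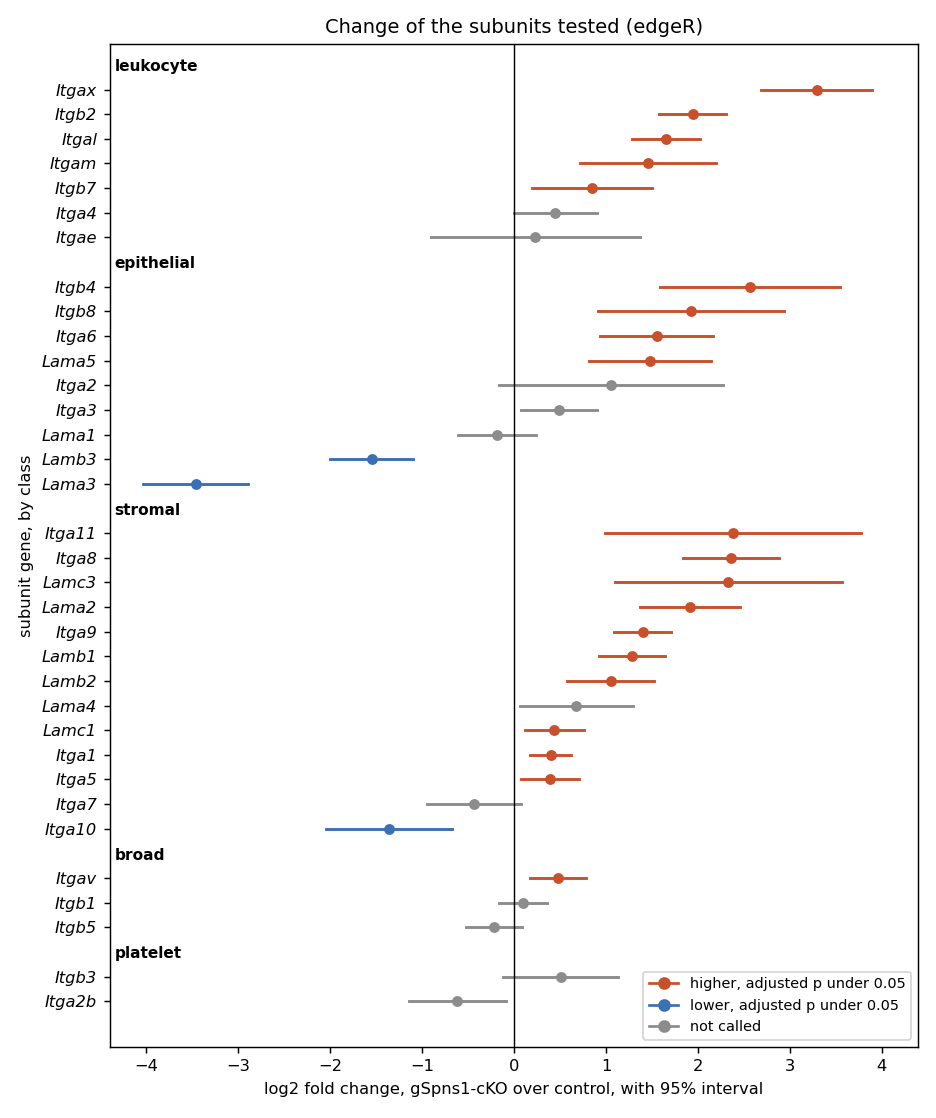
Log2 fold change of g*Spns1*-cKO over control for 34 tested members on the horizontal axis, grouped by class, with the 95% interval from edgeR as bars. Red marks members called higher, blue members called lower and grey members not called. The 7 leukocyte members lie above 0, from 0.23 to 3.29, whereas *Lama3* and *Lamb3* in the epithelial and *Itga10* in the stromal class lie below 0.

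Among the leukocyte subunits, the beta 2 chain *Itgb2* and its alpha partners *Itgax*, *Itgal* and *Itgam* rose. *Itgax*, the alpha X subunit found on dendritic cells and many tissue macrophages, had 13, 28 and 17 counts in control and 245, 223 and 300 counts in g*Spns1*-cKO mice. It went from 0.681 ± 0.224 to 6.75 ± 0.911 CPM, and the log2 fold change was 3.29 (SE 0.27, adjusted p = 2.09e-05). All 3 g*Spns1*-cKO mice lay far above the highest control, and the change was the largest upward change of the members. *Itgb2*, the beta chain shared by this family, had 119, 135 and 134 counts in control and 728, 568 and 723 in g*Spns1*-cKO mice. It went from 4.64 ± 0.575 to 17.8 ± 2.76 CPM, and the log2 fold change was 1.94 (SE 0.16, adjusted p = 2.32e-05). The control mice were close to one another and the groups did not overlap. *Itgal*, the alpha L subunit of lymphocytes and other leukocytes, which binds ICAM proteins, had 133, 156 and 170 against 696, 647 and 613 counts. It went from 5.50 ± 1.06 to 17.3 ± 1.91 CPM, and the log2 fold change was 1.65 (SE 0.17, adjusted p = 5.90e-05). Here too the lowest g*Spns1*-cKO mouse stood well above the highest control.

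*Itgam*, the alpha M subunit of neutrophils, monocytes and macrophages, had few counts in every liver. It had 14, 14 and 12 counts in control and 45, 53 and 51 counts in g*Spns1*-cKO mice. Its log2 fold change was 1.46 (SE 0.33, adjusted p = 0.0060), and mice of a group differed little. Its exons share 3450 of their 5024 bases with *Gm49368*, a gene on the same strand with a mean of 0 counts in control and 1 in g*Spns1*-cKO mice. How reads on shared exons were counted is not given in the sources used here. *Itgad*, the remaining alpha partner, had 2, 0 and 0 against 0, 1 and 4 counts and was not tested, with a ratio of summed counts per scaled library size of 1.85 and a counting interval of 0.303 to 19.5. *Itgal*, *Itgam*, *Itgax* and *Itgad* lie on chromosome 7 (GRCm38), the last 3 next to one another between positions 128062640 and 128223816.

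Per length, the alpha partners of beta 2 summed to 0.931, 1.05 and 1.26 CPM per kb in control and 4.61, 4.06 and 4.24 in g*Spns1*-cKO mice. Divided by the *Itgb2* level per kb, this sum was 0.672, 0.732 and 0.724 against 0.696, 0.837 and 0.704. The alpha sum per beta 2 chain thus overlapped between the groups, although the alpha sum and *Itgb2* were each higher in every g*Spns1*-cKO mouse. Within the sum, the share of *Itgal* was 77.4% in control and 61.0% in g*Spns1*-cKO mice, that of *Itgax* 13.2% and 32.7%, and that of *Itgam* 8.92% and 6.09%. These shares are means over 3 mice, and they divide the values whose changes are given above. *Itgam* was divided by its full 5024 bases, of which 3450 are shared with *Gm49368*. If reads on shared bases were left out of the counts, the level and share of *Itgam* are too low. The alpha sum would then be too low as well, and the shares of the other partners too high.

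**Figure D3:**
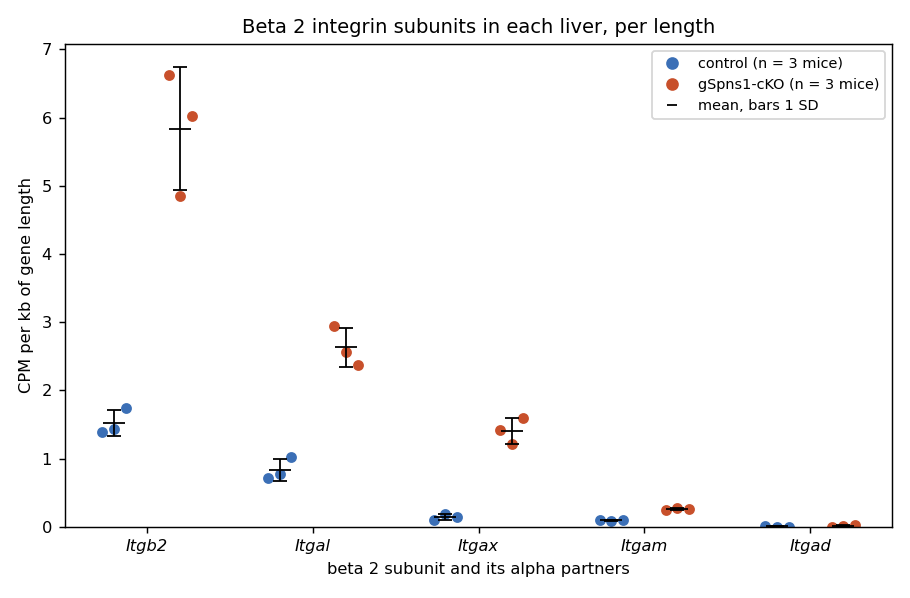
Level per length (CPM per kb of gene length, linear axis from 0) of *Itgb2* and its alpha partners in each liver. Points are mice, blue control and red g*Spns1*-cKO, and black marks give the mean and 1 SD (n = 3). Every g*Spns1*-cKO mouse lies above every control mouse for *Itgb2*, *Itgal*, *Itgax* and *Itgam*, while *Itgad* stays near 0.

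Of the other leukocyte subunits tested, *Itgb7* was called. *Itgb7*, the beta chain of gut-homing lymphocytes, went from between 1.35 and 2.02 to between 2.39 and 4.09 CPM, and the log2 fold change was 0.85 (SE 0.30, adjusted p = 0.0405). Mouse 1 was the highest of the g*Spns1*-cKO group, and without it the log2 fold change was 0.55 (adjusted p = 0.161). The *Itgb7* call was also lost without control 1, control 2 or g*Spns1*-cKO 3, with adjusted p of 0.117, 0.0996 and 0.0510. *Itga4*, the alpha 4 subunit that binds VCAM1 and fibronectin, had a log2 fold change of 0.45 (adjusted p = 0.103), with overlapping groups. *Itga4* was called higher in 3 of the 11 alternative fits, among them library size only and upper-quartile scaling. Of its 13978 exonic bases, 1124 overlap *Cerkl* on the opposite strand, which had mean counts of 36.3 and 41.7. *Itgae*, the alpha E subunit of intraepithelial lymphocytes, had 5 to 14 against 14 to 18 counts and a log2 fold change of 0.23 (adjusted p = 0.746).

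The epithelial class held both the members that fell furthest and several that rose. *Lama3*, the alpha 3 chain of the laminin that anchors epithelia, had 179, 296 and 228 counts in control and 34, 25 and 26 counts in g*Spns1*-cKO mice. It fell from 8.33 ± 1.73 to 0.753 ± 0.167 CPM, and the log2 fold change was -3.47 (SE 0.26, adjusted p = 1.12e-05), or 11.1-fold lower by the ratio of means. All g*Spns1*-cKO mice were far below the lowest control. *Lamb3*, the beta 3 chain that joins *Lama3* in the same trimer, had 197, 263 and 237 against 84, 130 and 109 counts. It fell from 8.30 ± 1.20 to 2.83 ± 0.529 CPM, and the log2 fold change was -1.55 (SE 0.20, adjusted p = 0.000273), again without overlap.

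Of the epithelial subunits of laminin receptors, *Itgb4* and *Itga6* rose. *Itgb4*, the beta 4 subunit of hemidesmosomes, had 7, 5 and 11 counts in control and 43, 63 and 84 in g*Spns1*-cKO mice, with a log2 fold change of 2.57 (SE 0.44, adjusted p = 0.0013). *Itga6*, its alpha partner and also a partner of *Itgb1*, had 27, 56 and 35 against 150, 131 and 184 counts, a log2 fold change of 1.55 (SE 0.28, adjusted p = 0.0016). In both, the groups lay apart. *Itgb8*, which with alpha V binds latent TGF-beta, had 24, 34 and 9 against 68, 178 and 94 counts and a log2 fold change of 1.92 (SE 0.45, adjusted p = 0.0078). Its g*Spns1*-cKO values were uneven, with mouse 2 highest. *Itgb6*, the other TGF-beta-binding beta chain of epithelia, had no count in any control and 8, 6 and 8 in g*Spns1*-cKO mice, which is at least 1.80-fold higher against a floor of 3 counts per library.

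*Lama5*, the alpha 5 chain of most mature epithelial and vascular basement membranes, had 92, 125 and 58 counts in control and 216, 476 and 333 in g*Spns1*-cKO mice. It went from 3.21 ± 0.885 to 8.96 ± 3.23 CPM, and the log2 fold change was 1.48 (SE 0.30, adjusted p = 0.0037). The groups did not overlap, and mouse 2 was the highest. *Lama1*, the alpha 1 chain of embryonic basement membranes, had 115 to 133 against 127 to 171 counts and a log2 fold change of -0.18 (95% interval -0.61 to 0.24, adjusted p = 0.479), which became 0.26 with library size as the only scaling. *Itga3*, the alpha 3 laminin receptor, had a log2 fold change of 0.49 (adjusted p = 0.0565) and *Itga2*, a collagen receptor with 2 to 8 against 15 to 19 counts, had 1.05 (adjusted p = 0.151). Neither passed the threshold, although in both each g*Spns1*-cKO mouse lay above each control. *Itga3* was called higher in 5 of the 11 alternative fits and *Itga2* in 1.

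Of the 7 stromal integrin subunits, all alpha chains, 5 rose. *Itga8*, the alpha 8 subunit of stellate and smooth muscle cells, had 89, 134 and 59 counts in control and 747, 549 and 624 in g*Spns1*-cKO mice. It went from 3.28 ± 1.02 to 17.0 ± 3.37 CPM, and the log2 fold change was 2.36 (SE 0.23, adjusted p = 6.88e-05). The groups were widely separated. An antisense gene, *E030013I19Rik*, overlaps 372 of its 7368 exonic bases and had a mean of 4 counts in control and 24.3 in g*Spns1*-cKO mice. *Itga9*, the alpha 9 subunit that binds tenascin and VCAM1, had 314, 360 and 227 against 1064, 932 and 1183 counts, a log2 fold change of 1.40 (SE 0.14, adjusted p = 6.10e-05). *Itga11*, a collagen receptor of fibroblasts, had 1, 3 and 2 against 13, 11 and 20 counts. From these summed counts the ratio per scaled library size was 5.43 with a counting interval of 2.31 to 15.6, and the fitted log2 fold change was 2.38 (SE 0.63, adjusted p = 0.0123). Without control 1 or without g*Spns1*-cKO 3 the *Itga11* call was lost, with adjusted p of 0.0527 and 0.0659.

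*Itga10*, a collagen receptor known from cartilage, was the stromal subunit that fell. It had 51, 84 and 92 counts in control and 40, 35 and 45 in g*Spns1*-cKO mice, or 2.73 ± 0.911 and 1.06 ± 0.126 CPM, and the log2 fold change was -1.36 (SE 0.31, adjusted p = 0.0058). After scaling, each g*Spns1*-cKO mouse lay below each control. Of its 5186 exonic bases, 1739 are shared with *Gm42957* on the same strand, which had mean counts of 0.333 and 1.33. *Itga1*, a collagen receptor of endothelial, stellate and smooth muscle cells, went from between 23.4 and 24.8 to between 29.5 and 33.3 CPM, and the log2 fold change was 0.40 (SE 0.10, adjusted p = 0.0109). It shares 685 of 18599 exonic bases with *Gm49395*, which had mean counts of 79 and 113. *Itga7*, the laminin receptor of muscle, had overlapping groups and a log2 fold change of -0.43 (adjusted p = 0.152), which was 0.0083 with library size as the only scaling. *Itga7* was called lower in 3 of the 11 alternative fits. It shares 9 exonic bases with *Mettl7b* on the opposite strand, which had mean counts of 31092 and 23849.

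*Itga5*, the fibronectin receptor alpha chain, had 403, 559 and 517 counts in control and 805, 834 and 992 in g*Spns1*-cKO mice. Per kb of the deposited gene length it was the most abundant integrin alpha subunit in both groups. By CPM, without regard to length, the means of *Itga1* and *Itgav* were higher in both groups. The log2 fold change of *Itga5* was 0.39 (SE 0.14, adjusted p = 0.0480), close to the threshold, and the groups did not overlap. Its call was lost with DESeq2 (adjusted p = 0.0621) and without any 1 of 5 mice, control 1 and 2 and g*Spns1*-cKO 1 to 3, with adjusted p of 0.172, 0.0948, 0.0585, 0.0576 and 0.170. Without control 1 the log2 fold change was 0.25. As a share of the integrin alpha sum per kb, *Itga5* went from 24.7% to 19.4%, while the sum itself went from between 13.1 and 15.6 to between 23.1 and 24.6 CPM per kb.

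Of the 6 stromal laminin chains 5 rose. *Lama2*, the alpha 2 chain of muscle and mesenchymal basement membranes, had 25, 28 and 29 counts in control and 147, 130 and 142 in g*Spns1*-cKO mice. Both groups were tight, at 0.981 ± 0.143 and 3.70 ± 0.356 CPM, and the log2 fold change was 1.91 (SE 0.25, adjusted p = 0.000246). *Lamb1*, the beta 1 chain, had 202, 186 and 215 against 547, 767 and 687 counts and a log2 fold change of 1.28 (SE 0.16, adjusted p = 0.000229). *Lamb2*, the beta 2 laminin chain of vessels and synapses, had 111, 167 and 100 against 267, 447 and 339 counts and a log2 fold change of 1.05 (SE 0.21, adjusted p = 0.0032). For both chains each g*Spns1*-cKO mouse lay above each control.

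*Lamc3*, the gamma 3 chain, had 30, 29 and 22 counts in control and 121, 344 and 87 in g*Spns1*-cKO mice. The 3 control mice were close to one another, whereas g*Spns1*-cKO 2 had 8.97 CPM against 3.36 and 2.21 in the others. The log2 fold change was 2.33 (SE 0.53, adjusted p = 0.00997) and 1.53 without that mouse (adjusted p = 0.0049). The call was lost without control 2 or control 3, with adjusted p of 0.0551 and 0.0510. *Lamc1*, the gamma 1 chain of most laminins, had 396, 619 and 479 against 801, 910 and 1018 counts and a log2 fold change of 0.44 (SE 0.14, adjusted p = 0.0331). All g*Spns1*-cKO mice lay above the controls, but the call was lost without control 1 or 3 or g*Spns1*-cKO 2 or 3, with adjusted p of 0.115, 0.0630, 0.0587 and 0.121. Without control 1 the log2 fold change of *Lamc1* was 0.28. *Lama4*, the alpha 4 chain of endothelial basement membranes, had a log2 fold change of 0.68 (adjusted p = 0.0742) with overlapping groups. *Lama4* was called higher in 5 of the 11 alternative fits.

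Set side by side per length, the laminin chains changed in make-up more than in amount for the alpha chains. The 5 alpha chains summed to 1.55, 2.01 and 1.78 CPM per kb in control and 1.52, 2.17 and 1.76 in g*Spns1*-cKO mice, so the groups overlapped. Within this sum, *Lama3* made up 38.3, 44.5 and 47.2% in control and 5.77, 2.80 and 3.49% in g*Spns1*-cKO mice. *Lama5* went from 18.5, 17.7 and 11.3% to 34.6, 50.3 and 42.2%. The most abundant alpha chain was *Lama3* in each control and *Lama5* in each g*Spns1*-cKO mouse. *Lama2* went from a mean of 3.41% to 12.8% and *Lama4* from 11.7% to 18.2%. *Lama1* was at 25.7% and 22.6%, with overlapping mice.

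The sum of the beta chains was higher in each g*Spns1*-cKO mouse, at 2.43 to 2.92 against 3.11 to 4.44 CPM per kb. *Lamb3* went from a mean of 46.1% to 11.5% of the beta sum, *Lamb1* from 27.0% to 47.9% and *Lamb2* from 26.9% to 40.6%. The leading beta chain was therefore *Lamb3* in each control and *Lamb1* in each g*Spns1*-cKO mouse. Because shares of a family add up to a constant, a lower share of 1 chain raises the others.

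**Figure D4:**
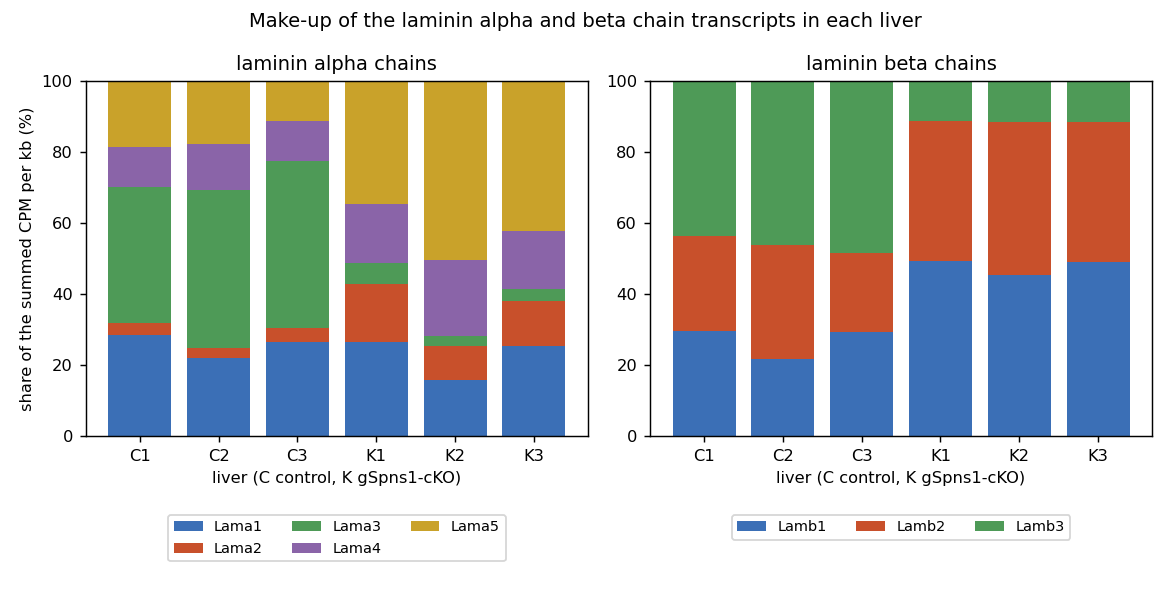
Share of each laminin chain in the summed CPM per kb of its family (percent, vertical axis) in each of the 6 livers, for alpha and beta chains. C marks control and K g*Spns1*-cKO mice, and colours are chains. *Lama3* takes 38.3 to 47.2% of the alpha sum in control and 2.80 to 5.77% in g*Spns1*-cKO mice, where *Lama5* leads with 34.6 to 50.3%.

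Of the 3 broad subunits, which hold the most abundant integrin transcripts, *Itgav* was called. *Itgb1*, the beta 1 chain shared by most matrix receptors, had 5118, 6062 and 5391 counts in control and 7505, 7787 and 8700 in g*Spns1*-cKO mice. After scaling this was 197 ± 15.5 and 211 ± 9.40 CPM with overlapping groups, a log2 fold change of 0.10 (95% interval -0.16 to 0.36, adjusted p = 0.538). With library size as the only scaling it was 0.54 (adjusted p = 0.0026), a setting in which the median of all genes tested was 0.46. *Itgb1* made up 62.6% of the beta sum per kb in control and 62.8% in g*Spns1*-cKO mice. *Itgb5*, a vitronectin receptor chain, was next with 33.7% and 27.0%, and *Itgb2* went from 1.96% to 7.05%. The log2 fold change of *Itgb5* was -0.22 (adjusted p = 0.221), which became 0.22 with library size as the only scaling. *Itgav*, the alpha partner of beta 3, beta 5, beta 6 and beta 8, went from between 15.6 and 21.9 to between 24.1 and 27.7 CPM, and the log2 fold change was 0.48 (SE 0.14, adjusted p = 0.0175). That call was lost without control 1 or 2 or g*Spns1*-cKO 3, with adjusted p of 0.0661, 0.0555 and 0.0528.

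The platelet subunits were not called in the main edgeR fit. *Itga2b*, the alpha IIb chain of platelets and megakaryocytes, went from between 3.40 and 6.07 to between 2.97 and 3.38 CPM, and the log2 fold change was -0.62 (adjusted p = 0.0580). *Itga2b* was called lower in 3 of the 11 alternative fits. Among these were DESeq2 (adjusted p = 0.0433) and edgeR with a filter of at least 1 count in any library (adjusted p = 0.0359). In edgeR with library size as the only scaling *Itga2b* was at -0.18 (adjusted p = 0.562). With upper-quartile scaling it was at -0.49 (adjusted p = 0.130). Its groups just failed to overlap. *Itgb3*, its beta chain, which endothelium and other cells also use, had a log2 fold change of 0.51 (adjusted p = 0.176) with overlapping groups. With library size as the only scaling, *Itgb3* was called higher in edgeR (0.95, adjusted p = 0.0181). The chains of this receptor had estimates of opposite sign.

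The list of cytoplasmic and membrane proteins linked to integrins, such as adaptors, kinases, RAP1 GTPases, keratins and a tetraspanin, held genes called in both directions. Of 46 listed genes 45 were tested, with 20 higher, 7 lower and 18 not called, and a median log2 fold change of 0.29. The largest rises were *Flna*, the actin crosslinker filamin A, at 2.06, *Apbb1ip*, the RAP1 effector that recruits talin in leukocytes, at 2.01, *Parvg*, the parvin of blood cells, at 1.96, and the kinase *Syk* at 1.74. The largest falls were *Lims2*, the LIM protein PINCH2, at -0.89, the focal adhesion kinase relative *Ptk2b* at -0.83, *Parva*, alpha-parvin, at -0.64 and *Cib1*, which binds the alpha IIb tail, at -0.58. With library size as the only scaling, 34 of these genes were higher and 2 lower.

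Of 32 listed integrin ligands outside the laminins 27 were tested, with 14 higher, 4 lower and 9 not called, and a median of 0.96. The largest rises were thrombospondin 1 (*Thbs1*) at 2.67, E-cadherin (*Cdh1*), the ligand of alpha E beta 7, at 2.13, osteopontin (*Spp1*) at 2.13 and *Vcam1*, the ligand of alpha 4 integrins, at 2.09. The 4 that fell are plasma proteins made by hepatocytes, namely vitronectin (*Vtn*) at -1.20 and the fibrinogen chains *Fgg* at -0.98, *Fgb* at -0.98 and *Fga* at -0.82. With library size as the only scaling, 21 ligands were higher and 1 lower.

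Of 28 listed basement membrane partners 26 were tested, with 13 higher, 2 lower and 11 not called, and a median of 0.72. The type IV collagen chains *Col4a6* and *Col4a5* had the largest rises, at 3.13 and 2.54. *Nid1*, nidogen 1, which links laminin to type IV collagen, rose by 2.18 and *Smoc2*, a calcium-binding matrix protein, by 1.70 on the log2 scale. *Fras1*, an epithelial basement membrane protein, fell by 1.36 and the syndecan *Sdc4* fell by 0.76 on the log2 scale. The share called was 60% of the tested integrin-linked proteins, 66.7% of the ligands and 57.7% of the basement membrane partners, against 68.6% of the subunits and 41.8% of all genes tested.

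Markers of liver cell types were set beside the subunit classes. The 8 macrophage and Kupffer cell markers all rose, with sums of 152 to 254 CPM in control and 538 to 813 in g*Spns1*-cKO mice, and *Cd5l* had the highest level in g*Spns1*-cKO mice, 227 ± 54.5 CPM against 65.6 ± 23.3 in control. The leukocyte subunit sum per macrophage marker sum was 0.116, 0.0873 and 0.0801 in control and 0.0707, 0.0924 and 0.0873 in g*Spns1*-cKO mice. Relative to these markers, the leukocyte subunits overlapped between the groups. Of the monocyte and dendritic cell markers 3 of 5 tested rose, with sums of 3.24 to 4.90 and 10.3 to 11.02 CPM, led by *Clec9a* at 1.72 ± 0.305 and 4.57 ± 0.936 CPM. Of the 7 neutrophil markers the 3 tested rose, with sums of 2.17 to 3.90 and 5.56 to 10.3 CPM, while *Ngp*, *Mpo*, *Camp* and *Ly6g* were too low for the test. Of the 7 T and NK cell markers 3 rose and *Cd4*, the most abundant in control, fell from 1.94 ± 0.110 to 0.806 ± 0.389 CPM, with sums of 3.99 to 4.42 and 5.53 to 6.80 CPM. The 3 B cell markers, led by *Cd79a*, had adjusted p between 0.233 and 0.981 and overlapping sums of 0.830 to 1.85 and 1.53 to 2.20 CPM. Their part in the leukocyte subunit changes was not tested.

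For the epithelial class, the 5 cholangiocyte markers tested, of 6, rose, with sums of 5.85 to 7.40 CPM in control and 24.2 to 34.9 in g*Spns1*-cKO mice, and *Sox9* at 3.77 ± 1.31 and 11.7 ± 1.54 CPM was the most abundant. The epithelial subunit sum per cholangiocyte marker sum was 4.33, 7.05 and 4.91 against 1.42, 1.34 and 1.53, lower in each g*Spns1*-cKO mouse. *Lama3* and *Lamb3* moved opposite to these markers, and *Itgb4*, *Itga6*, *Itgb8* and *Lama5* moved with them. Hepatocyte markers, with *Alb* the most abundant, fell in 3 of 4 cases and summed to between 94198 and 105827 CPM in control and between 54275 and 62696 in g*Spns1*-cKO mice. Of the 4 mesothelial markers 2 rose, *Wt1* the more abundant of them in g*Spns1*-cKO mice at 6.07 ± 0.827 CPM, with sums of 4.86 to 17.1 and 18.6 to 24.4 CPM. The part of these cell types in the epithelial subunit changes was not tested.

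For the stromal class, the 6 stellate cell markers rose, with sums of 194 to 223 and 476 to 571 CPM, led by *Dcn* at 113 ± 4.55 and 335 ± 55.9 CPM. Of 7 endothelial markers 5 rose, with sums of 141 to 158 and 209 to 255 CPM, and *Stab2* reached the highest level in g*Spns1*-cKO mice, 71.3 ± 8.68 CPM. The stromal subunit sum per stellate marker sum was 0.418, 0.560 and 0.544 against 0.347, 0.314 and 0.326, lower in each g*Spns1*-cKO mouse. Per endothelial marker sum it was 0.620, 0.701 and 0.751 against 0.648, 0.858 and 0.744, with overlapping groups. Of 6 platelet markers 2 were tested. *Pf4* rose, with a log2 fold change of 2.27, and the other, at -0.73, was not called. The platelet marker sums were 1.04 to 1.74 and 2.11 to 3.10 CPM, and *Gp1bb* had 0 counts in every liver. The part of these cells in the stromal and platelet subunit values was not tested.

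**Figure D5:**
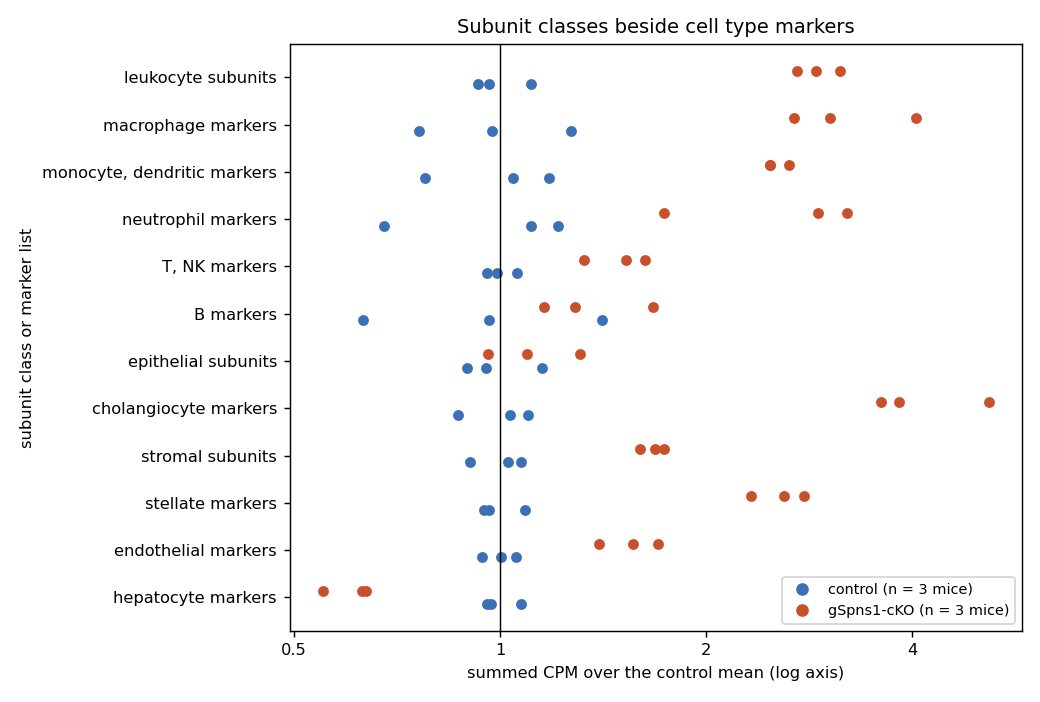
Summed CPM of each subunit class or marker list in each liver, divided by the mean of the control livers, on a log axis. Points are mice, blue control and red g*Spns1*-cKO (n = 3 each), and the vertical line marks the control mean. Leukocyte subunits have a ratio of means of 2.91 and macrophage markers one of 3.26, whereas epithelial subunits, at 1.12, overlap between the groups and cholangiocyte markers, at 4.20, do not.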

How the data were processed

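RNA-Seq of poly-A RNA was analysed for 6 livers with 1 library each, 3 of control and 3 of g*Spns1*-cKO mice, grouped by the sample labels. The authors deposited whole-number counts per gene, made without pooling by a sequencing service. The submitters' processing notes name fastp, HISAT2 2.0.5, featureCounts 1.5.0-p3 and mm10, and the strand setting is not given in the sources used here. The FPKM values that the authors deposited were used only to check the chain shares, and lengths per kb use the gene length deposited by the authors. Shares from both were equal to rounding, which the same counts and gene length would give, so the check is not independent. The columns holding the authors' own comparison of the groups were not used. Coordinates of the 37 members equalled those of GENCODE M21 (GRCm38).

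Counts were filtered by filterByExpr, scaled by TMM and compared by the quasi-likelihood test of edgeR 4.0.16 (robust setting, no covariate) in R 4.3.3, with Benjamini-Hochberg adjustment over 15449 genes and a threshold of 0.05. An SE is the log2 fold change divided by the square root of F. The script was tested on simulated counts with few genes changed, evenly up and down. That test does not cover a shift of composition between the groups. Values are mean ± SD over 3 mice, and two-sided exact permutation of 3 against 3 mice cannot go below p = 0.1. Floors and counting intervals (95%) at totals of 30350002 to 35295611 counts cover counting error only, since reads carry no molecular identifiers. Libraries of a group differed by more than sampling noise, with a chi-square per gene of 38.8 to 114.

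Alternatives were DESeq2 1.42.0, library size only, upper-quartile scaling, a filter of at least 1 count in any library, a replicate block and leaving out each mouse. Whether replicate numbers of the labels pair the mice is not given in the sources used here, and the main fit used no pairing. Members, classes, lists and motifs were chosen with earlier results of these data known. Per-mouse counts were given for members called with an absolute log2 fold change of at least 1, members too low for the test and the main chains. In each list of binding partners, the 4 called genes with the largest change in each direction were named, and of each marker list the most abundant marker. Other genes named were chosen after their values were seen. Transferrin was not found under the symbol *Tf*, which left 4 of 5 hepatocyte markers. Proteins were not used here. A member that counts among those tested is not reported here.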

Additional observations from a re-analysis of the deposited data

How the results depend on the processing

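Of the 24 members called, 18 were called in each of 11 alternatives, and the others were *Itgav*, *Itgb7*, *Itga11*, *Itga5*, *Lamc1* and *Lamc3*. With library size as the only scaling the median over all genes tested was 0.46 on the log2 scale, the class medians were 1.90 (leukocyte), 1.71 (epithelial) and 1.495 (stromal), and 27 members were higher and 3 lower. Under it *Itgb5* (0.22), *Lama1* (0.26) and *Itga7* (0.0083) turned positive without passing the test, *Spns1* was at -0.43 and no longer called, the integrin-linked proteins had 34 higher and 2 lower, and the ligands and the basement membrane partners had 1 lower each. With upper-quartile scaling the median of all genes was 0.14 and *Spns1* was at -0.74, not called. With a filter of at least 1 count in any library 5 members were lower and the leukocyte median was 1.14, since *Itgad* then entered. The cause of the other shifts was not tested.

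Without 1 mouse in turn, 16 to 22 members were higher and 3 to 4 lower, the class medians were 1.42 to 1.48 (leukocyte), 0.98 to 1.45 (epithelial) and 0.85 to 1.18 (stromal), and *Spns1* was at -1.18 to -0.68. *Itgae* ranged from 0.67 to -0.14, the latter without control 2. Members not called in the full data passed the test without control 2 (*Itga3*), control 3 (*Itga2b*), g*Spns1*-cKO 1 (*Itga4*, *Itgb3*, *Itgb5*, *Lama4*) or g*Spns1*-cKO 2 (*Itga7*). Deviations of same-numbered mice had correlations of 0.037, 0.033 and -0.028. With 3 mice per group, such values cannot decide whether the numbers mark pairs. The replicate block gave 22 members higher and 4 lower, with *Itgb7* not called (adjusted p = 0.0738) and *Spns1* at -0.90. A floor of 3 counts limited *Itgad*, *Itgb6* and *Itga11*.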
